A study of Mus musculus with 78 samples.

Results

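The third day of ZFP143 depletion was examined as the change in steady-state RNA between 48 h and 72 h of treatment in the RNA-seq time course. All genes that exceeded 10 counts in 2 or more of the 4 libraries from 48 h and 72 h were taken, which gave 14350 of the 55401 genes in the table. A further 29268 genes had no count in these 4 libraries, and 11783 had some counts but did not reach the minimum. Genes were not chosen by how they changed. The cells were E14TG2a mouse embryonic stem cells, a line derived from an early embryo that divides and self-renews in culture. The genotype ZFP143-FKBP means that the endogenous Zfp143 gene carried an FKBP12 F36V degron followed by 2 HA tags and eGFP, in lines grown from single GFP-sorted cells. Every library in the comparison carried this allele, so there was no untagged control. The 48 h group and the 72 h group, with 2 libraries each, had received 500 nM dTAG-V1, a molecule that brings the degron-tagged protein to the VHL ubiquitin ligase. The same table held 2 libraries treated with DMSO and 2 treated with dTAG-V1 for 24 h, which were used for the spread between replicates and for levels beside the comparison.

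ZFP143 is a zinc-finger transcription factor that binds promoters, among them promoters of genes for the mitochondrion, and activates transcription there. When such an activator is removed, its own targets can fall first, and genes that respond to the state of the cell can follow on later days. Embryonic stem cells kept with inhibitors of MEK and GSK3 and with LIF stay in the naive state, in which Pou5f1, Sox2, Nanog, Esrrb and Klf4 hold the network of self-renewal together. The labels gave no time for DMSO and no DMSO library at 48 h or 72 h was in the table. A longer depletion and a further day in culture therefore cannot be told apart in these data.

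The 4 libraries held 12017276 and 10760455 counts at 48 h, and 10261851 and 13873422 at 72 h. The 8 markers of embryonic stem cells were all measured and none passed the test, with a summed level of 3504 and 3430.3 CPM (counts scaled to a common effective library size) at 48 h, then 3262 and 3291 at 72 h. Markers of primitive endoderm summed to 17.7 and 20.2 CPM at 48 h and to 20.2 and 20.0 at 72 h, those of mesoderm to 11.7 and 14.8 and to 18.5 and 20.0, and those of fibroblasts to 11.6 and 10.7 and to 9.84 and 10.9. Neural markers summed to 68.2 and 62.4 CPM at 48 h and to 93.6 and 87.0 at 72 h, with Neurog2 and Dcx at 0. Trophoblast markers stayed between 0.649 and 1.27 CPM in all 4, with Cdx2 at 0, those of totipotent-like cells between 1.80 and 3.12 CPM, and Dcn of the fibroblast markers was at 0. None of the markers tested was called in either direction, but many lineage markers were below the count minimum and could not be called. Those tested were 5 of 7 for primitive endoderm, 1 of 5 for mesoderm and 3 of 6 for neural cells. For trophoblast they were 0 of 5, for totipotent-like cells 1 of 5 and for fibroblasts 3 of 6. The degron acts on the protein, so the Zfp143 transcript does not check the depletion. It stood at 43.6 and 44.9 CPM in DMSO, 95.0 and 93.2 at 48 h, then 109.5 and 103 at 72 h. Its third-day log2 change was 0.17 ± 0.05 (SE), an adjusted p of 1.00 in edgeR, and its exons overlap those of AA474408.

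On the third day, 129 genes fell (0.899% of those tested) and 135 rose (0.941%), by edgeR's test against a fold change of 1.5 at an adjusted p of 0.01. Most genes moved little: 12063 of 14350 (84.1%) had a log2 change between -0.58 and 0.58, and the median over all genes was -0.01. The genes that fell did so by a median log2 of 1.32, between 0.77 and 2.64, and those that rose had a median log2 change of 1.48, between 0.74 and 4.76. The change exceeded 2 log2 units for 19 genes that fell and 35 that rose. Genes that rose had been at a median of 4.90 CPM at 48 h and reached 13.1 at 72 h, while those that fell went from 13.0 to 5.35, against 24.9 and 24.6 for all genes tested. In all 264 called genes both 72 h libraries lay beyond both 48 h libraries, which largely follows from passing the test and is no separate support. Protein-coding genes made up 96.1% of those that fell and 88.9% of those that rose, against 88.6% of all genes tested.

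The number of calls depended on the test and on each library. A looser rule, an adjusted p under 0.05 without the fold in the null hypothesis and a log2 change over 0.5, called 1168 genes lower (8.14%) and 1004 higher (7.00%). DESeq2 with the stricter rule called 36 lower and 28 higher, all of them among the genes called by edgeR. Leaving out 1 library of the comparison gave 74 lower and 66 higher without 48 h replicate 1, 72 and 69 without 48 h replicate 2, 76 and 89 without 72 h replicate 1, and 74 and 75 without 72 h replicate 2. With library size alone as the scaling, 112 fell and 159 rose, a share of 58.7% higher in place of 51.1%. The libraries are 2 biological replicates per time point according to the methods, with a common coefficient of variation of 3.65%, and the p-values measure the spread between these libraries. RNA was taken from whole cultures, so fewer cells of a type and less RNA per cell cannot be told apart.

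**Figure D1:**
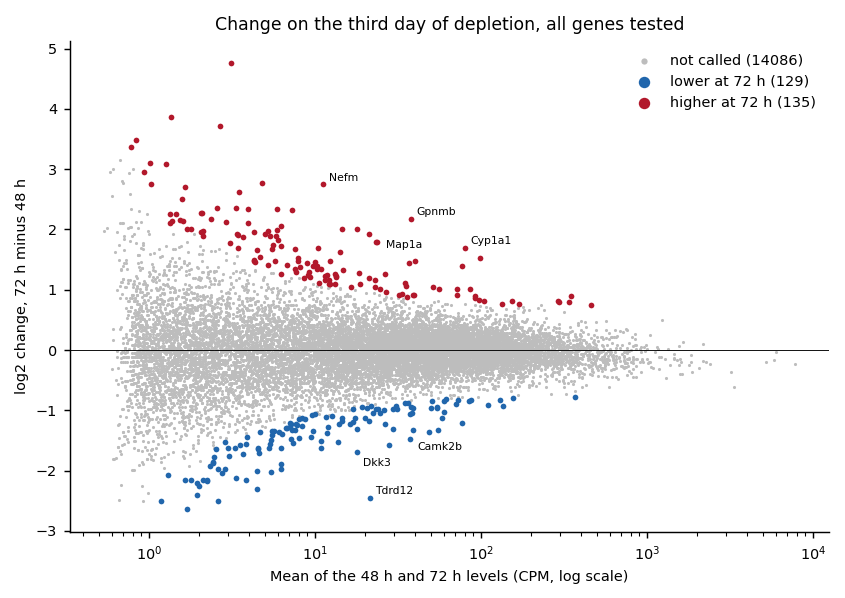
Each point is 1 of the 14350 genes tested, with the mean of its 48 h and 72 h levels in CPM on a log axis and its log2 change from 48 h to 72 h on the other axis. The 129 genes in blue fell and the 135 in red rose, and the rest, in grey, did not pass the test. The widest spread of changes, called and not called, is at the low levels on the left.

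Among the genes with at least 100 counts on average, the 10 greatest decreases were of genes with different roles. Tdrd12 (chromosome 7, 35469098 to 35537745), a Tudor-domain protein of the piRNA pathway that silences transposons in germ cells, stood at 35.2 and 37.8 CPM at 48 h and at 5.91 and 7.25 at 72 h. In DMSO it had been at 78.0 and 83.6 CPM and at 24 h at 112 and 111. Its third-day log2 change was -2.45 ± 0.11 (SE), a 5.46-fold decrease with an adjusted p of 1.15e-13 in edgeR, and all 4 libraries of 48 h and 72 h lay below the 4 earlier ones. Dkk3, a secreted protein of the dickkopf family, stood at 26.2 and 28.8 CPM at 48 h and at 8.46 and 8.53 at 72 h. Its 72 h level lay below both DMSO libraries (10.7 and 11.2 CPM), after a first-day rise to 26.5 and 27.2 at 24 h, and the third-day log2 change was -1.69 ± 0.11 (adjusted p 5.05e-09). Got1l1, an aspartate aminotransferase-like gene, stood at 8.19 and 8.53 CPM in DMSO, 26.4 and 28.4 at 24 h, 40.0 and 44.1 at 48 h, then 12.3 and 15.5 at 72 h. Its log2 change was -1.57 ± 0.10 (adjusted p 5.31e-09).

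Sox13, a transcription factor of the SRY-box family, fell at each step, from 86.0 and 85.2 CPM in DMSO over 39.5 and 42.8 at 24 h and 16.7 and 16.1 at 48 h to 5.73 and 4.97 at 72 h. The third-day log2 change was -1.63 ± 0.13 (adjusted p 4.77e-07). Cdh3 encodes P-cadherin, an adhesion protein of epithelia and placenta, and went from 70.3 and 69.7 CPM at 48 h to 27.3 in both 72 h libraries, with a log2 change of -1.36 ± 0.07 (adjusted p 2.80e-10). Camk2b, a subunit of calcium/calmodulin-dependent kinase II, went from 56.1 and 54.2 CPM to 19.1 and 20.3, with a log2 change of -1.48 ± 0.08. The remaining genes of this group were Limd2 with -1.52, Crabp1, which binds retinoic acid in the cytoplasm, with -1.51, the copine gene Cpne5 with -1.44 and the glycosyltransferase-like gene Glt1d1 with -1.37. The exons of Limd2 and Cpne5 overlap those of Gm10840 and AC162182.2 on the other strand. The strand setting of the counts is not given in the sources used here, so such pairs may share reads. The call of Cpne5 was lost without 72 h replicate 2 (log2 -1.19, adjusted p 0.0246), and those of the other 9 were kept in every alternative run.

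Of the 10 greatest increases, 3 were genes of the neuronal cytoskeleton. Nefm (chromosome 14, 68082590 to 68124846), the medium neurofilament chain, stood at 3.27 and 2.48 CPM at 48 h and at 19.4 and 19.7 at 72 h. Its log2 change was 2.75 ± 0.19 (adjusted p 7.09e-10), and in DMSO it had been at 0.652 and 1.23 CPM. Nefl, the light neurofilament chain encoded next to it, went from 11.0 and 9.93 CPM to 36.9 and 36.1, a log2 change of 1.80 ± 0.10. The annotated exons of Nefm and Nefl overlap on opposite strands, so their values may not be independent. Map1a, a microtubule-associated protein of neurons, went from 12.0 and 9.22 CPM at 48 h to 38.4 and 35.5 at 72 h, against 15.9 and 19.7 in DMSO, with a log2 change of 1.79 ± 0.12. Its exons overlap Ppip5k1.

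Another group of the increases encodes secreted, membrane and lysosomal proteins. Gpnmb (chromosome 6, 49036546 to 49070929), a glycoprotein of lysosomes and melanosomes, went from 1.40 and 1.23 CPM in DMSO over 3.00 and 3.21 at 24 h and 13.0 and 14.3 at 48 h to 65.4 and 58.5 at 72 h. The third-day log2 change was 2.18 ± 0.09 (adjusted p 1.15e-13). Tgfbi, an extracellular matrix protein, went from 8.77 and 8.86 CPM to 34.1 and 33.0 (log2 1.93 ± 0.11). Timp3, an inhibitor of matrix metalloproteinases whose exons overlap Syn3, went from 6.30 and 7.98 CPM to 29.9 and 27.4 (log2 2.01 ± 0.14). Fgfr2, a receptor for fibroblast growth factors, stood between 4.39 and 7.07 CPM in the 6 libraries up to 48 h and at 17.6 and 14.5 at 72 h (log2 1.70 ± 0.16). Its annotated span overlaps Ctbp2 on the same strand.

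The remaining 3 increases were of a transcription factor, an enzyme and an epigenetic regulator. Jun, a subunit of the AP-1 transcription factor, stood at 7.07 and 6.00 CPM in DMSO, 2.76 and 1.56 at 24 h, 6.22 and 5.32 at 48 h, then 23.1 and 23.5 at 72 h. Its third-day log2 change was 2.01 ± 0.14 (adjusted p 5.47e-09), and its exons overlap Junos. Cyp1a1, a monooxygenase induced through the aryl hydrocarbon receptor, went from 39.3 and 36.3 CPM to 119 and 126 (log2 1.70 ± 0.07). Dnmt3l, a cofactor of the de novo DNA methyltransferases, went from 6.70 and 7.27 CPM to 20.4 and 22.5 (log2 1.62 ± 0.14), with exons that overlap Aire. In DMSO and at 24 h it was between 0.487 and 1.81 CPM. The calls of all 10 genes were kept in every alternative run.

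**Figure D2:**
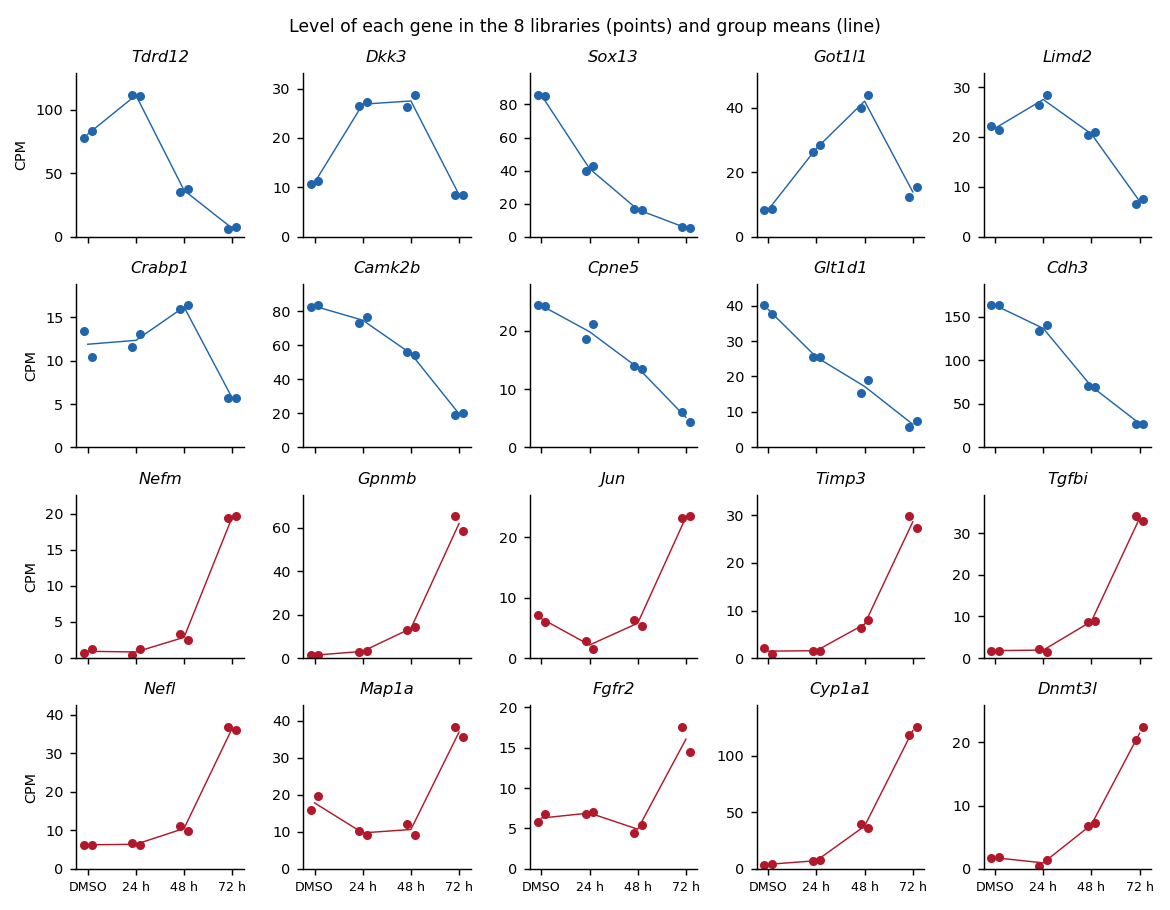
Level in CPM of the 10 genes with the greatest decrease (blue, upper rows) and the 10 with the greatest increase (red, lower rows) among genes with at least 100 counts on average. Points are single libraries, lines join the means of the 2 libraries per group, and each axis starts at 0. Sox13 fell at every step, whereas Dkk3 and Got1l1 were higher at 48 h than in DMSO and fell on the third day.

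Gene lists for metabolism, growth, stress, membranes and cell state were described by their called members and their median, beside the median of -0.01 over all genes. They were chosen with earlier results of these data known, so a share above that of all genes is no independent evidence. Of 45 lists, 19 had a called member and 26 had none. The lists held 1003 different tested genes, of which 7 fell (0.698%) and 20 rose (1.99%), beside 0.899% and 0.941% of all genes tested. Under the looser rule 68 were lower (6.78%) and 74 higher (7.38%), beside 8.14% and 7.00%. Of the 33 naive pluripotency genes 1 fell and none rose, with a median of -0.06. The gene that fell was Dppa3, which protects methylation in the early embryo and also counts among the germline genes. It stood at 80.4 CPM in both DMSO libraries, at 45.7 and 41.2 at 24 h, at 8.69 and 7.18 at 48 h and at 3.37 and 2.22 at 72 h. The log2 change on the third day was -1.55 ± 0.20 (adjusted p 3.71e-04), and the call was lost without 48 h replicate 1 or 72 h replicate 2, with values between -1.84 and -1.24 over all alternatives. Under the looser rule 3 of the 33 were lower and 1 was higher, again beside 8.14% and 7.00%.

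Neural and neuronal genes had 4 of 21 tested members that rose, beside 0.941% of all genes, and none that fell, with a median of 0.26. Besides Nefm and Nefl, these were Cdh4 and Prph. Cdh4, R-cadherin, went from 6.62 and 5.58 CPM to 14.9 and 16.2 (log2 1.35 ± 0.15, adjusted p 2.97e-04). Prph, the intermediate filament protein peripherin, went from 50.4 and 50.1 CPM to 92.4 and 96.6 (log2 0.91 ± 0.06, adjusted p 2.55e-04). Both calls were lost with DESeq2 (adjusted p 0.255 and 0.154) and without 72 h replicate 2, and that of Cdh4 also without 48 h replicate 2. Under the looser rule 6 of the 21 were higher and 2 lower, beside 7.00% and 8.14% of all genes, and the lowest change was -1.22. The summed level of the list was 594 and 584 CPM at 48 h, 764 and 734 at 72 h, and 600.4 and 638 in DMSO. Neurog2 and Dcx, which mark neurons and their precursors, were at 0, as stated above.

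Other lists of cell identity had few called members and moved both ways. Among 20 genes of the formative and primed state, those entered after the naive state, 2 rose, Dnmt3l and Sox11. Sox11, a transcription factor of neural and embryonic tissues, went from 5.74 and 6.03 CPM to 14.6 and 15.1 (log2 1.34 ± 0.15, adjusted p 2.63e-04, lost with DESeq2 and without 48 h replicate 1). Of 17 germline genes, Dppa3 fell and Dazl, an RNA-binding protein of germ cells, rose from 56.1 and 58.4 CPM to 109 and 122 (log2 1.01 ± 0.06, adjusted p 7.15e-06). Of 13 trophoblast genes, Cdh3 fell and Peg10 rose. Of 7 fibroblast genes tested Mmp2, a matrix metalloproteinase, fell from 7.50 and 6.29 CPM to 2.37 and 2.08 (log2 -1.64 ± 0.23, adjusted p 7.36e-04), a call lost with DESeq2 and without 48 h replicate 1 or 72 h replicate 2. Primitive endoderm (16 tested, median 0.23), mesoderm (7, median 0.31) and totipotent-like genes (5, median 0.05) had none, with extremes of -0.94 for Cubn and 1.31 for Dab2, -1.10 for Gsc and 1.45 for Cdx1, and -0.88 for Zscan4a and 1.39 for Usp17le.

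Imprinted genes are expressed from 1 parental allele, and 2 of 24 rose, beside 0.941% of all genes, while none fell, with a median of 0.28. Impact, a regulator of the kinase GCN2, went from 346 and 347 CPM to 578 and 577 (log2 0.74 ± 0.04, adjusted p 0.00569). Peg10, a gene derived from a retrotransposon and needed for the placenta, went from 3.59 and 3.81 CPM to 10.9 and 8.93 (log2 1.41 ± 0.18, adjusted p 7.87e-04). Both calls were lost with DESeq2 (adjusted p 0.126 and 0.121), that of Impact without any 1 of the 4 libraries, and that of Peg10 without 48 h replicate 1 or 72 h replicate 1.

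Signalling lists each had 1 called member at most. Jun was the only 1 of 20 ERK response genes that rose (median of the list 0.30), Sp5 the only 1 of 12 WNT response genes (median 0.14) and Id3 the only 1 of 11 BMP response genes (median -0.15). Sp5, a direct WNT target, stood at 0.399 and 0.620 CPM at 48 h, then 2.09 and 2.28 at 72 h, and Id3, an inhibitor of basic helix-loop-helix factors, at 0.957 and 0.798 and at 2.37 and 4.36. Both calls rest on low counts. Sp5 lost its call with DESeq2 (adjusted p 0.818) and without any 1 of the 4 libraries, and Id3 with DESeq2 (adjusted p 1.00) and without either 48 h library or 72 h replicate 2. Of the Nodal pathway genes none of 15 was called (median -0.09), with Nodal at 0.49. Among 40 genes of the actin cytoskeleton and of YAP or SRF targets, Anxa5, a phospholipid-binding annexin, rose from 22.3 and 23.6 CPM to 43.7 in both libraries (log2 0.93 ± 0.09, adjusted p 0.00297), a call that neither DESeq2 nor the fits that left out 1 of the 4 libraries kept. Under the looser rule 5 of the 40 were lower and 10 higher, beside 8.14% and 7.00% of all genes.

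Genes of cholesterol synthesis and uptake had the highest median of all lists with at least 5 tested members, 0.35. A positive change was found in 20 of the 24, beside 6945 of all 14350 genes. By the test 3 of the 24 rose, beside 0.941% of all genes, and none fell, and 2 of the 3 are described. Msmo1, a sterol methyl oxidase, went from 213 and 211 CPM at 48 h to 382 and 366 at 72 h (log2 0.82 ± 0.04, adjusted p 1.46e-04). Hmgcs1, which makes HMG-CoA and overlaps Gm48342, went from 244 and 253 CPM to 430.1 and 429 (log2 0.79 ± 0.05, adjusted p 0.00219). The call of Hmgcs1 was lost with DESeq2 (adjusted p 0.0816) and on leaving out each of the 4 libraries in turn, while that of Msmo1 was kept in every alternative. The looser rule called 6 of the 24 higher and 2 lower, beside 7.00% and 8.14% of all genes. The 14 fatty acid synthesis genes had no called member and a median of 0.00, from -0.44 for Acsl3 to 0.54 for Elovl1.

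Lysosomal genes had a median of 0.26, with 33 of 42 above 0, beside 6945 of all 14350 genes. Only Gpnmb rose by the stricter rule, whereas the looser rule called 7 of the 42 higher and 1 lower, beside 7.00% and 8.14% of all genes. The summed level of the list was 7453 and 7598 CPM at 48 h, then 9464 and 9374 at 72 h, with no overlap. Autophagy genes had no called member among 24 (median 0.09), from Wipi1 at -0.51 to the cargo receptor Sqstm1 at 0.49. Basement membrane and matrix genes had none among 27 (median -0.10), from Col18a1 at -0.77 (adjusted p 0.0223) to Col4a1 at 0.67.

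Several lists of growth and energy genes had most members below 0 and few or none called. Of all 14350 genes tested 7405 lay below 0. Mitotic regulators had a median of -0.32, with 29 of 30 below 0, and 1 fell: Ccnb2, a cyclin of entry into mitosis, went from 115 and 110.2 CPM to 61.5 and 65.8 (log2 -0.82 ± 0.06, adjusted p 0.00176). That call was lost with DESeq2 (adjusted p 0.238), with library size as the scaling and without 48 h replicate 1 or 72 h replicate 1. The summed level of the 30 genes was 5119 and 5198 CPM at 48 h, then 4127 and 4136 at 72 h. Cytosolic ribosomal proteins had a median of -0.22 with 81 of 85 below 0 and none called, and their summed level went from 45917 and 44084 CPM to 38126 and 37740.4. In that list Rpl3l had -1.64 and Rpl39l 0.64, both variants of a ribosomal protein rather than the common form. Rpl3l had a mean of 12.8 counts, and its value (SE 0.48) did not pass in edgeR (adjusted p 0.141). The 9 measured genes of mitochondrial DNA had a median of -0.34 and all lay below 0, from mt-Nd6 at -0.75 to mt-Nd2 at -0.12. None of the 9 was called, and together they took 0.953% and 1.04% of all counts at 48 h, then 0.760% and 0.768% at 72 h. Under the looser rule 3 of the 9 were lower and none higher, beside 8.14% and 7.00% of all genes.

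The 6 lists of nuclear genes for mitochondrial gene expression, respiration and protein folding had no called member on the third day. The median was -0.09 for the 76 genes of the mitochondrial ribosome (Mrpl2 -0.50, Mrps6 0.70), -0.14 for 37 complex I subunits (Ndufv2 -0.39, Ndufb3 0.33) and -0.05 for 40 subunits of complexes II to V (Sdhb -0.45, Cox7c 0.40). It was -0.16 for 28 mitochondrial translation factors and tRNA synthetases (Vars2 -0.53, Wars2 0.54), and -0.02 both for 16 enzymes of the tricarboxylic acid cycle (Fh1 -0.63, Pdhb 0.15) and for 17 mitochondrial chaperones and proteases (Htra2 -0.51, Clpx 0.20). With library size as the scaling the medians of these last 2 lists were 0.02 each, and no other list changed the sign of its median. Cox7c, a subunit of cytochrome oxidase, has a ZFP143 peak 49 bp from its start and stood at 81.2 and 76.0 CPM in DMSO, 5.76 and 6.79 at 24 h, 5.26 and 6.29 at 48 h, then 7.00 and 8.06 at 72 h. Its decrease was on the first day (log2 -3.65), and the third-day value of 0.40 did not pass the test.

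MYC and MYC-induced genes had a median of -0.12 with 15 of 20 below 0, and 1 fell, Pa2g4. Myc itself, named after its values were seen, had the highest value of the list, with 1.04 and 0.443 CPM at 48 h, 2.46 and 2.82 at 72 h and a log2 of 1.80 ± 0.38 that did not pass (adjusted p 0.0187). Ribosome biogenesis factors (22 of 30 below 0, median -0.15, Rrp9 -0.51, Nop16 0.27) and replication genes (24 of 32 below 0, median -0.13, Tk1 -0.63, Gins3 0.46) had none. Of 67 replication-dependent histones only Hist1h1c was measured, with -0.11 ± 0.47. The other members did not reach the count minimum in these poly(A) libraries, so the list gives no reading of histone expression. Of 14 cyclin-dependent kinase inhibitors and G1 cyclins Ccnd2 rose, from 2.07 and 2.48 CPM to 5.91 and 6.65 (log2 1.47 ± 0.25, adjusted p 0.00852), a call lost with DESeq2, with a replicate block and whenever 1 of the 4 libraries was left out. The exons of Ccnd2 overlap 9330179D12Rik and Gm43126. Glycolysis enzymes (17 of 22 below 0, median -0.16, Slc16a3 -1.07, Slc2a1 0.48) and fatty acid oxidation enzymes (10 of 16 below 0, median -0.09, Etfb -1.18, Acadl 0.34) had no called member.

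Stress lists had 2 called members. Of 27 ATF4 targets, the genes of the integrated stress response, 1 rose. Atf5, whose exons overlap Il4i1 and Nup62, went from 257 and 234 CPM to 448 and 464 (log2 0.89 ± 0.05, adjusted p 1.80e-05). It had been at 49.7 and 42.9 CPM in DMSO and at 159 and 166 at 24 h, so it was higher at each step. The median of the list was -0.10, however, and 18 of 27 lay below 0. Of 17 serine and one-carbon enzymes Pycr1, which makes proline in mitochondria, fell from 81.1 and 77.3 CPM to 32.0 and 31.4 (log2 -1.32 ± 0.07, adjusted p 2.46e-09), to below its DMSO level of 77.8 and 72.1. Both calls were kept in every alternative run. No member was called among endoplasmic reticulum chaperones (21, median 0.11, Ero1lb -0.46, Dnajb9 0.83), cytosolic heat shock proteins (12, median 0.14, Hsp90aa1 -0.20, Hspb8 0.38), NRF2 targets and glutathione enzymes (21, median 0.01, Tkt -0.72, Hmox1 0.63), hypoxia response genes (15, median 0.09, Ankrd37 -0.53, Kdm3a 0.74) or interferon-stimulated genes (16, median -0.04, H2-K1 -0.75, Ddx58 0.74). Tkt (adjusted p 0.0106) and Kdm3a (0.0130) missed the threshold narrowly.

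**Figure D3:**
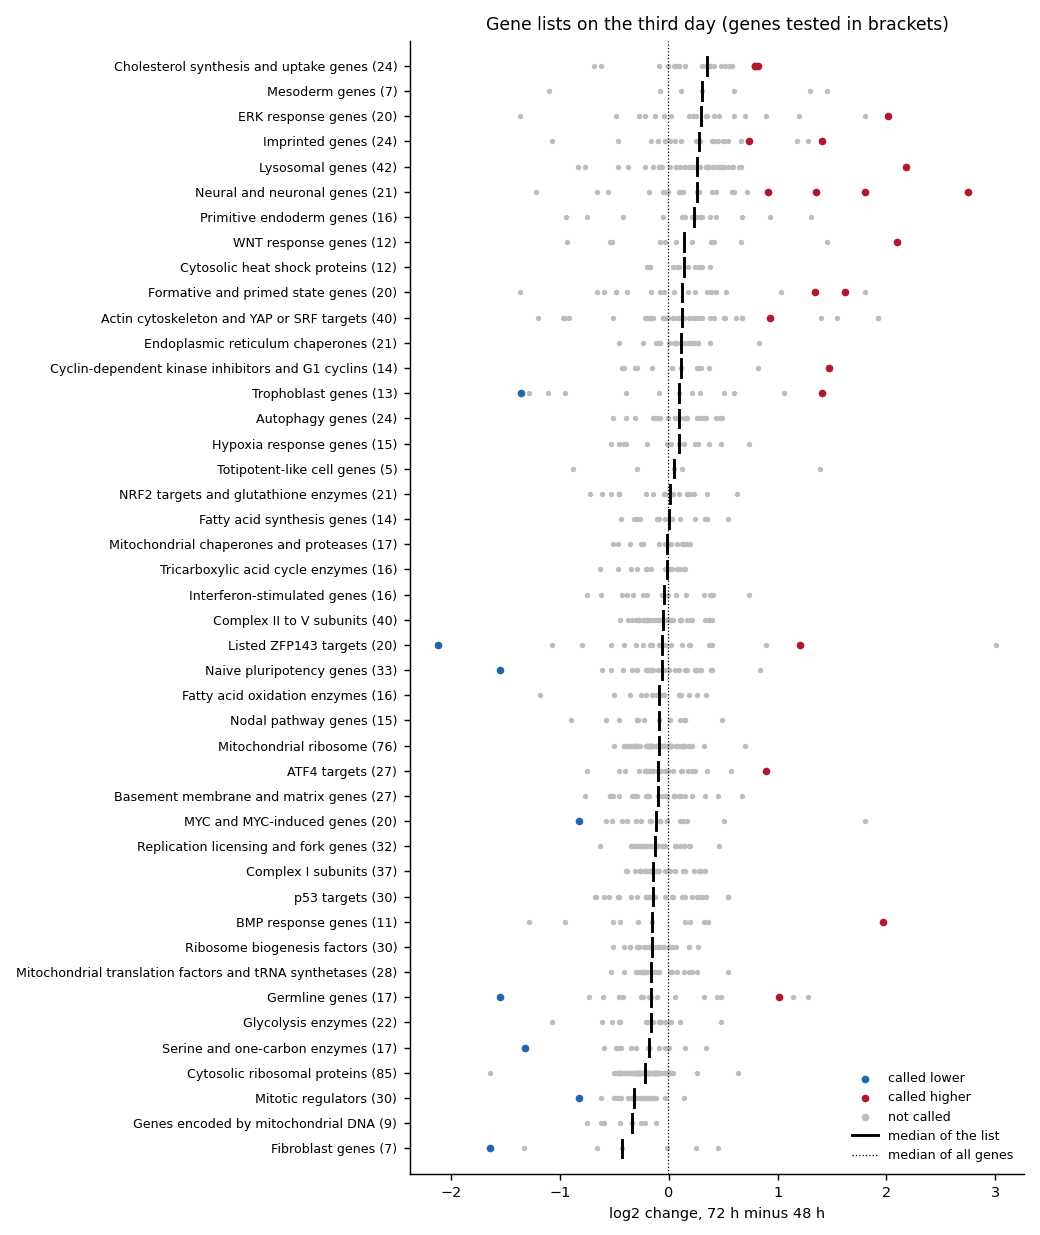
Log2 change from 48 h to 72 h of each tested gene (points) in the lists with at least 5 tested members, sorted by the median of the list (bars). Blue points fell, red points rose and grey points did not pass the test, and the dotted line is the median of all genes. Medians run from -0.43 for fibroblast genes to 0.35 for cholesterol genes, and called genes are few in every list.

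Whether a change belonged to the third day was asked by the difference between the third day and the second, (72 h minus 48 h) minus (48 h minus 24 h), in which the 48 h libraries enter both changes. By this test 148 genes were lower (1.03%) and 36 higher (0.251%). Of the 129 genes that fell on the third day 18 had a lower day difference and none a higher one, and of the 135 that rose 2 had a lower one and 7 a higher one. For 18 of 129 and 7 of 135, therefore, the third-day change was shown to go further in its direction than that of the second day. Since the third-day change is part of the difference, these counts are no independent measurement.

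The p53 targets, genes that answer DNA damage and other stress, had no called member on the third day, and a median of -0.14 beside 0.56 on the second day and 0.19 on the first. Their third-day values ran from -0.68 for Bbc3 to 0.54 for Plk3. In the day difference 8 of the 30 were lower and none was higher, beside 1.03% and 0.251% of all genes tested. These 8 are named here after their values were seen: Fas, Ddit4l, Plk2, Pidd1, Mdm2, Ercc5, Phlda3 and Gtse1. Mdm2, the ubiquitin ligase of p53, stood at 165 and 168 CPM in DMSO, 198 and 206 at 24 h, 362 and 385 at 48 h, then 317 and 328 at 72 h. Its day difference was -1.09 ± 0.08 (adjusted p 7.98e-06), with 0.89 on the second day and -0.21 on the third. Ddit4l, an inhibitor of mTOR signalling, went from 17.5 and 21.6 CPM at 24 h over 46.2 and 50.3 at 48 h to 32.6 and 31.7 at 72 h (day difference -1.90 ± 0.15). Plk2, a Polo-like kinase, was higher at each step, with 50.1 and 51.6, 142 and 149.8, and 179 and 173 CPM, and a day difference of -1.25 ± 0.09. The count of 8 was 3 with DESeq2, 4 without 48 h replicate 2 and 5 without 24 h replicate 2, 48 h replicate 1 or 72 h replicate 2.

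The cholesterol genes showed the reverse order of signs, with a median of 0.02 on the first day, -0.30 on the second and 0.35 on the third. The day difference was higher for 3 of 24 and lower for none, beside 0.251% and 1.03% of all genes tested. Among the 3 were Hmgcs1 with 1.08 ± 0.09 (adjusted p 9.84e-05) and Dhcr7, the last enzyme of the pathway, with 1.04 ± 0.09 (adjusted p 2.27e-04). Dhcr7, named after its values were seen, stood at 149 and 158 CPM at 24 h, 109.9 and 104 at 48 h, then 156 and 151 at 72 h, so that the 48 h libraries lay below the other 4. Other lists had higher differences too: 2 of 14 fatty acid synthesis, 2 of 15 hypoxia response and 2 of 21 NRF2 and glutathione genes. None of these had a lower one. Among the 22 glycolysis enzymes the difference was higher for Aldoa, Pkm and Slc2a1 and lower for Eno2, also named after their values were seen. Aldoa (chromosome 7, 126795234 to 126800751), whose exons overlap Fam57b, went from 1036 and 1116 CPM at 24 h to 513 and 498 at 48 h, then 480.1 and 471 at 72 h, with log2 changes of -1.09 and -0.09 on the second day and the third. Pkm had -0.93 and -0.03, and Slc2a1, the glucose transporter GLUT1, had -0.58 and 0.48.

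The genes with the greatest day difference in each direction were taken among those also called on the third day and with at least 100 counts on average. Mmp2, below that minimum, had a lower day difference of -2.82 (adjusted p 9.06e-05). Prph rose on the second day (log2 3.57) and by less on the third (0.91), a day difference of -2.66 ± 0.16. Bhlhe41, a repressor of the circadian clock whose exons overlap Gm43909, had 3.94 and 1.25. Its third-day call was lost with DESeq2 and without 48 h replicate 2 or either 72 h library, and its day difference without either 24 h library, 48 h replicate 1 or 72 h replicate 1. Got1l1, the zinc-finger gene Zfp423 and the meiotic gene Ccdc36 had a positive second-day change (0.62, 1.03 and 0.94) and fell on the third day (-1.57, -1.13 and -1.14). The third-day calls of Zfp423 (adjusted p 0.00934) and Ccdc36 (0.00935) were near the threshold and were lost in 12 and 11 of 16 alternatives, RLE size factors, library size and DESeq2 among them. Conversely Myom2, a protein of the sarcomere, stood at 35.2 and 29.4 CPM at 24 h, 17.1 and 13.8 at 48 h, then 38.9 and 36.2 at 72 h, a day difference of 2.33 ± 0.19 (adjusted p 3.87e-08). Fgfr2 with 2.20, Map1a with 1.66 and Cul7, a scaffold of a ubiquitin ligase, with 1.16 were higher as well. The day difference of Fgfr2 was lost without 48 h replicate 1, that of Map1a without 24 h replicate 1 or 48 h replicate 2, and that of Cul7 without 48 h replicate 2. The third-day call of Cul7 was lost with DESeq2 (adjusted p 0.0910) and without 48 h replicate 2 or 72 h replicate 1. With DESeq2 the day differences of Bhlhe41, Zfp423, Ccdc36, Fgfr2, Map1a and Cul7 did not pass, with adjusted p of 0.363, 0.0560, 0.103 and 0.0450 for the first 4 of these.

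**Figure D4:**
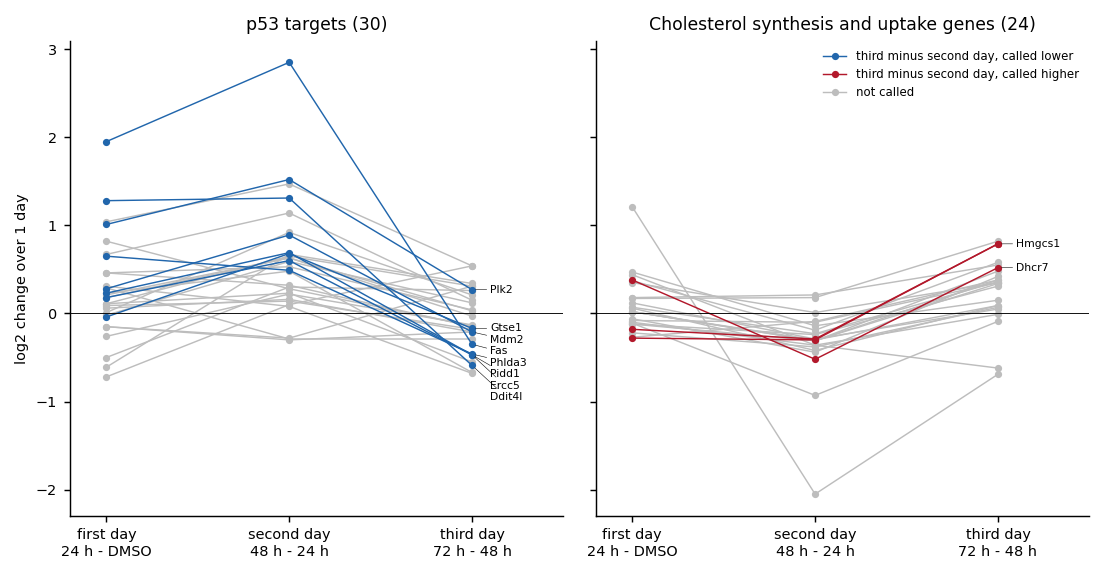
Log2 change over each day for the 30 p53 targets (left) and the 24 genes of cholesterol synthesis and uptake (right), 1 line per gene. Coloured lines are genes whose third-day change was lower (blue, 8) or higher (red, 3) than the second-day change by the test of the difference. Medians go from 0.56 on the second day to -0.14 on the third for p53 targets and from -0.30 to 0.35 for cholesterol genes, and neighbouring days share a time point.

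The first day, 24 h against DMSO, shares no library with the third. On that day 469 genes fell (3.27%) and 315 rose (2.20%) of the 14350. Of the 129 genes that fell on the third day, 10 (7.75%) had fallen on the first, 2.13% of those 469, and 10 (7.75%) had risen, 3.17% of those 315. Of the 135 that rose on the third day, 10 (7.41%) had fallen on the first day, 2.13% of the 469, and 7 (5.19%) had risen, 2.22% of the 315. Third-day genes were found on both sides of the first-day change, each share above that of all genes tested. The median first-day change was 0.10 for genes that fell on the third day and 0.24 for those that rose, beside 0.01 for all genes. Under the looser rule, which called 8.43% of genes lower and 11.0% higher on the first day, 12.8% and 21.6% of the 1168 genes lower on the third day were lower and higher on the first. For the 1004 higher on the third day these shares were 12.7% and 18.5%.

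In nascent RNA at 24 h, measured by TT-seq of RNA labelled for a short time, 4.55% of 13134 genes tested in both assays were lower than in DMSO and 2.26% higher. Of the 123 such genes that fell on the third day 9 (7.32%) were lower and 1 (0.813%) was higher, 1.51% and 0.337% of the TT-seq lists. Of 115 that rose, 5 (4.35%) were lower and 8 (6.96%) higher, 0.838% and 2.69% of the lists. Gpnmb and Atf5 were among the 8, with TT-seq log2 changes of 2.02 and 1.88.

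ZFP143 peaks, from ChIP-seq with the HA tag, had their centre within 2000 bp of a start of 14.5% of all genes tested. The same held for 16 of the 129 genes that fell (12.4%) and 10 of the 135 that rose (7.41%), and with 500 bp for 10 (7.75%) and 9 (6.67%), against 13.2%. None of these 4 shares was above that of all genes tested. Of the 10 genes that fell on both the first and the third day 6 had a peak, as had 6 of the 10 that fell on the first and rose on the third, while 370 of all 469 genes that fell on the first day had one (78.9%). None of the 10 genes that rose on the first day and fell on the third, nor of the 7 that rose on both, had one, beside 31 of 315 (9.84%).

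Among genes with a peak that fell on both days, 3 are described. St3gal2 (chromosome 8, 110919922 to 110972480, plus strand), a sialyltransferase, stood at 80.9 and 72.1 CPM in DMSO, 17.8 and 17.5 at 24 h, 5.18 and 5.67 at 48 h, then 1.27 and 1.21 at 72 h. The third-day log2 change was -2.12 ± 0.24 (adjusted p 2.08e-05, kept in every alternative run), no library overlapped one of another time point, and in TT-seq at 24 h it was -2.16. Pa2g4 (chromosome 10, 128557766 to 128565987, minus strand), a growth-associated RNA-binding protein, went from 515 and 562 CPM in DMSO over 228 and 227 at 24 h and 166 in both libraries at 48 h to 96.2 and 93.0 at 72 h. Its third-day log2 change was -0.82 ± 0.05 (adjusted p 8.95e-04), its exons overlap Gm47275, and the call was lost with DESeq2 (adjusted p 0.0665) and without either 48 h library or 72 h replicate 2. Zcchc3, a sensor of nucleic acids named after its values were seen, went from 50.6 and 47.6 CPM in DMSO over 10.1 and 10.0 at 24 h and 8.61 and 7.45 at 48 h to 3.46 and 2.69 (third-day log2 -1.41 ± 0.18).

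Other genes with a peak fell on the first day and rose on the third. Rpp30 (chromosome 19, 36083716 to 36104777, plus strand), a protein subunit of RNase P, stood at 31.1 and 32.2 CPM in DMSO, 3.49 and 2.57 at 24 h, 5.82 and 5.50 at 48 h, then 12.9 and 13.3 at 72 h. Its third-day log2 change was 1.21 ± 0.14 (adjusted p 0.00136), lost with DESeq2 (adjusted p 0.209) and without either 48 h library or 72 h replicate 2, and its 72 h level stayed below both DMSO libraries. Peg10 had the same course, with 17.1 and 19.8 CPM in DMSO, 2.11 and 2.29 at 24 h, and the values at 48 h and 72 h given above. Jun, with a peak centre 200 bp from its start, was above both DMSO libraries at 72 h. Tmco3, Zbtb10 and Cr1l, named after their values were seen, had first-day log2 changes of -2.57, -1.72 and -1.72 and third-day changes of 1.24, 1.19 and 1.10. A list of ZFP143 targets was drawn from genes named in the study or known from earlier results of these data, so its first-day direction is no independent evidence. Of its 20 tested genes St3gal2 fell and Rpp30 rose on the third day. The median of that list was -2.73 on the first day, -0.12 on the second and -0.06 on the third.

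**Figure D5:**
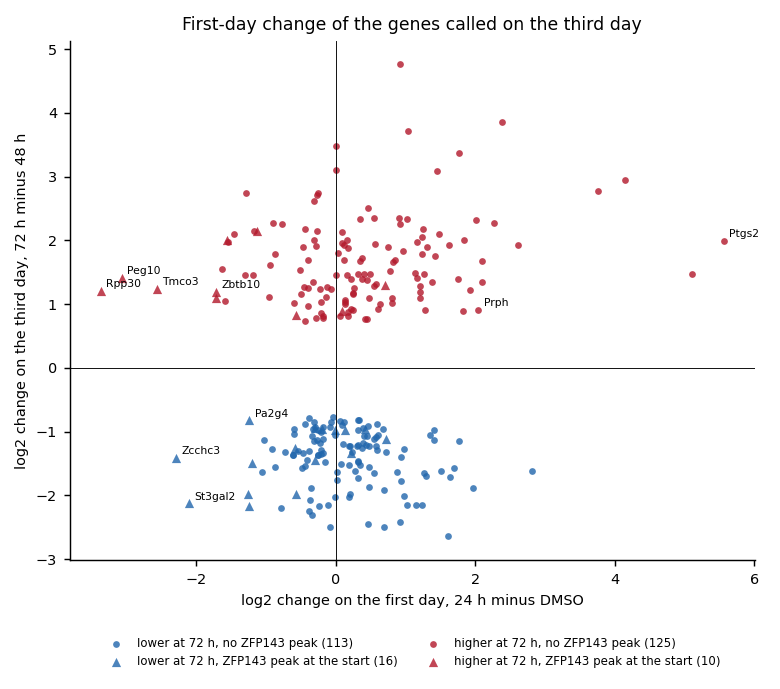
Log2 change on the first day (24 h minus DMSO) against that on the third (72 h minus 48 h) for the 264 genes called on the third day, blue for those that fell and red for those that rose. Triangles are the 16 and 10 genes with a ZFP143 peak centre within 2000 bp of a start. Both colours lie on either side of 0 on the first-day axis, and the triangles with the lowest first-day values include Rpp30, Peg10, Tmco3, Zcchc3 and St3gal2.

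The peak sequences of 3 of these genes are given because they carry like motifs although the genes moved in opposite directions on the third day. The 300 bases around each peak centre were read from the mm10 genome on the strand of the gene, and capitals mark the motifs ACTACA and TCCCAG on either strand, which make up a known recognition sequence of ZFP143. The windows are chr8:110919547-110919846 for St3gal2, with 206-fold enrichment over input and the centre 226 bp from the nearest start of a coding or long noncoding transcript, chr10:128565893-128566192 for Pa2g4, with 150-fold and 55 bp, and chr19:36083517-36083816 for Rpp30, with 127-fold and 65 bp. For Rpp30 that start is not the outermost end of the gene given above.
St3gal2: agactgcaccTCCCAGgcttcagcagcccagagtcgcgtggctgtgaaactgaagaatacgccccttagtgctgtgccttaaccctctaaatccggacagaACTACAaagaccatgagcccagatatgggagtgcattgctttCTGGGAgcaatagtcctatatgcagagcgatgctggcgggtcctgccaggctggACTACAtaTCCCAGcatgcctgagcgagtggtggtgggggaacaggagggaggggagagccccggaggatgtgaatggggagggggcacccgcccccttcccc
Pa2g4: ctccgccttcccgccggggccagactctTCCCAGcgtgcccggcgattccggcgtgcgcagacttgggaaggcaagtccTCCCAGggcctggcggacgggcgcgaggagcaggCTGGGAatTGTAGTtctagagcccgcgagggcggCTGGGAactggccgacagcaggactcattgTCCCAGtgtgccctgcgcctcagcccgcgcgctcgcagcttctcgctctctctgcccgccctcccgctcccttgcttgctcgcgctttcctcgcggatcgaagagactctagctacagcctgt
Rpp30: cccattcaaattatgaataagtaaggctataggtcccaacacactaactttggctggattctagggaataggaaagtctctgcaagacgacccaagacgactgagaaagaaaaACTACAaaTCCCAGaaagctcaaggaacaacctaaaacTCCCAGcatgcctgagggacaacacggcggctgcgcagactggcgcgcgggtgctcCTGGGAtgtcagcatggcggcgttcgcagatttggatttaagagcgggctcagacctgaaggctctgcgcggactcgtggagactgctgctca

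In each of the 3 windows the motifs stood once with 2 bases between them, as ACTACANNTCCCAG, on the gene's strand in St3gal2 and Rpp30 and on the other strand in Pa2g4. ACTACA occurred 2, 1 and 1 times and TCCCAG 3, 5 and 3 times, without overlap. Of the 3189 peaks 39.3% held ACTACA, 63.7% TCCCAG, 27.2% both and 19.3% the spaced pair within such a window. Of 32851 RefSeq promoters of the same length these shares were 10.3%, 31.8%, 3.74% and 1.03%. These are shares of exact matches. With motif matrices, which allow other letters, the study found recognition motifs in the large majority of its ZFP143 peaks. A match of letters is a description and not a measured site.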

How the data were processed

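RNA-seq libraries were made from poly(A) RNA with a stranded kit and sequenced paired-end. According to the methods and labels, the authors aligned reads to mm10 with STAR and counted them per GENCODE vM25 gene, and the deposited values are raw counts. The strand setting of the counts is not given in the sources used here. TT-seq reads were counted by the authors per gene and strand after removal of duplicates, also as deposited counts. ZFP143 peaks were called by the authors with MACS2 as 1 list, whose deposited fold enrichment is a ratio over input. The study's own RNA-seq test was DESeq2 with a fold of 1.5 in the null hypothesis, at an adjusted p of 0.01.

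Here edgeR 4.0.16 (R 4.3.3) was fitted on the counts of all 8 time-course libraries, which held 10261851 to 15316700 counts each, with TMM factors and no replicate block. The 72 h against 48 h contrast was tested by glmTreat against a fold of 1.5, with Benjamini-Hochberg adjustment over all 14350 genes and a threshold of 0.01. A gene is called where it passed that test, and log2 changes with their standard errors (SE) come from the same fit. The difference between days and the first day were tested in the same way, and TT-seq at 24 h against DMSO in a fit of its own. CPM are counts scaled to a common effective library size by the TMM factors. They are not divided by gene length, so levels are compared between samples and not between genes.

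Named genes were Zfp143, the 10 greatest called decreases and increases with a mean of at least 100 counts and no overlap of the groups, up to 4 called members of each list or its extremes where none was called, and 5 genes per direction for the day difference. Exceptions are marked in the text, and some genes that met this rule are not reported here. The members and lists were chosen with earlier results of these data known. Gene names, positions and starts came from GENCODE vM21 on mm10, which matched 55141 of the 55401 genes by identifier without version. A gene was bound where a peak overlapped the 2000 bp before to 1000 bp after the start of a coding or long noncoding transcript and had its centre under 2000 bp from it. Sequences of peaks were read from mm10, and promoters of 300 bases came from RefSeq. The scripts were tested on simulated data. DESeq2 1.42.0, other scalings, filters, sample sets, a replicate block and leaving out each library were the alternatives.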

Additional observations from a re-analysis of the deposited data

Results flagged for a closer look

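Results that differed between the second and the third day by the edgeR test of that difference stood out. They were 148 genes with a lower and 36 with a higher third-day than second-day change. Of the genes also called on the third day and with at least 100 counts on average, the 5 greatest lower differences (log2) were -2.69 for Bhlhe41, -2.66 for Prph, -2.19 for Got1l1, -2.17 for Zfp423 and -2.09 for Ccdc36. Among the greatest higher ones were 2.33 for Myom2, 2.20 for Fgfr2, 1.66 for Map1a and 1.16 for Cul7. The 48 h libraries enter both changes with opposite sign, so a deviation of these libraries moves all such values, and its part in them was not tested.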

How the results depend on the processing

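With DESeq2 the third day had 36 genes lower and 28 higher, while day difference genes lower numbered 32 and day difference genes higher 13, and the first day 433 genes, and 27 of the named genes and 11 gene lists had a call, in place of 46 and 19. Under the looser rule these were 1168, 1004, 1213, 626, 2793, 75 and 41. Leaving out 1 library at a time gave 72 to 139 genes lower and 66 to 163 higher on the third day, 66 to 174 lower and 12 to 49 higher in the day difference, 617 to 772 on the first day, 30 to 47 named genes and 10 to 20 lists. The lone library of a group was then assumed to vary like the other groups. RLE size factors (126 lower and 141 higher), library size (112 and 159), no count filter (134 and 166), over 10 counts in at least 4 of 8 libraries (118 and 120) and the 4 libraries alone (133 and 165) stayed within 1.5 times of 129 and 135. Of 46 named genes called on the third day, 25 were called in every setting and 19 were not with DESeq2. Of the named genes Hist1h1c, which was not called, changed sign, with -0.71 and 0.42 as the lowest and highest values on leaving out 1 library. In p53 targets the count of 8 lower day differences was 3 with DESeq2 and 16 under the looser rule. The cause of these changes was not tested. Genes with few counts are limited by depth.

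Replicate numbers did not pair the samples, since deviations of same-numbered libraries correlated between -0.02 and 0.08. With the number as a replicate block 124 genes were lower and 135 higher on the third day, 143 lower and 35 higher in the day difference, and 774 called on the first day, and 43 named genes and 18 lists had a call. Ccnd2, Zfp423 and Ccdc36 lost theirs.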
